A study of Homo sapiens with 12 samples.

Results

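BON-1 cells sorted from co-culture with CAFs at a BON-1 to CAF ratio of 10:6, the highest CAF share in the study, were compared with BON-1 cells grown alone. BON-1 is an established human pancreatic neuroendocrine tumour line, and CAFs usually stands for fibroblasts of the tumour stroma, cancer-associated fibroblasts. The members of the comparison were the genes with an FPKM (fragments per gene length and per total of assigned fragments) that reached 1 or more in 3 or more of the 6 libraries. They numbered 12686 of the 54261 genes in the deposited table, of which 28383 had a value above 0 in any of the 6 libraries. The filter was passed through both groups by 12433 members, through co-culture alone by 238 and through BON-1 alone by 15, and 10908 members were protein-coding. RGS9, at 1.0005, and TTC28, at 0.9997, had the third highest FPKM just inside and just outside the filter.

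The study sequenced poly(A) RNA from 12 libraries, 3 each of BON-1 alone and of co-cultures at 10:2, 10:4 and 10:6. Beyond the cell line and the ratio, the labels name no genotype, agent, dose or time, and they do not say from which donor or tumour the CAFs came. Cells were isolated from co-culture by flow cytometry, per the labels' protocols, which leave unsaid whether the BON-1 alone group was sorted too and how pure the sorted cells were. Therefore RNA of CAFs carried through the sort and RNA made by BON-1 cells cannot be told apart, nor can co-culture and sorting. The labels also do not say that the libraries of a group were separate cultures, so p-values measure only the spread between these libraries, which may be technical.

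Neuroendocrine tumour cells store peptide hormones and granins, acidic proteins that help to form dense-core granules, and release them by regulated secretion. Fibroblasts of the tumour stroma build the surrounding matrix from fibrillar collagens and glycoproteins, and when activated they take on contractile proteins such as smooth muscle actin. Matrix and growth factors made by fibroblasts can act on tumour cells through integrins and receptor kinases.

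Reads assigned to genes numbered 12918760 to 21882537 in the libraries of BON-1 alone and 13516898 to 15327524 in those of 10:6. Pairs of replicates differed by more than counting noise, with a chi-square per degree of freedom of 1.66 to 2.88 over genes with at least 50 reads. Levels below are FPKM, given as the mean ± SD of n = 3. Changes are differences of log2(FPKM + 1), 10:6 minus alone, which understate the change of genes at low levels. A gene was called when its adjusted p in limma was under 0.05, and "rose" and "fell" are used only for called genes. The summed FPKM of 18 BON-1 identity genes was 6861 to 6915 in BON-1 alone and 6915 to 7194 at 10:6. This sum holds changes in opposite directions, with SCG2 going from 746.7 to 1401 and CHGA from 1347 to 975.1. Of the 15 identity genes that were tested, 5 rose and 7 fell, or 5 and 3 after quantile normalization. Among all 18, TPH1, which makes serotonin's precursor, had 3 and 2 reads over the 3 libraries of each group, and SLC18A2, a vesicular monoamine transporter, had 112 and 113.

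Levels of 6303 genes (49.7% of the 12686 tested) differed between 10:6 and BON-1 alone, of which 3856 (30.4%) rose and 2447 (19.3%) fell. Most changes were small. The median size was 0.41 on the log2 scale for genes that rose and 0.20 for those that fell. On the FPKM + 1 scale, a 2-fold difference was passed by 28 protein-coding genes that rose and by none that fell. At 1.5-fold the counts were 740 and 1. The 8 genes that rose at least 4-fold on that scale included COL1A1, COL1A2, COL3A1, SPARC, ACTA2 and IGFBP7, products of matrix-forming or contractile cells. The others were CGA and CGB5, subunits of glycoprotein hormones. Ratios of FPKM itself give another set: CGA was at 3.93, while FSTL1 and CGB3, outside these 8, were at 7.30 and 4.48. The libraries of each group did not overlap for 7562 genes (59.6%), among them 98.3% of the genes that rose and 97.3% of those that fell. The share of called genes that rose was 61.2%, against 44.7% after quantile normalization and 47.8% when only genes reaching an FPKM of 5 in 3 of the 6 libraries were tested.

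What the genes that rose had in common, beyond the stromal genes at the top, was the base composition of their transcripts. The median GC content was 42.0% for genes that rose, 58.6% for genes that fell and 52.6% for genes that were not called. Among the 1416 members with a transcript GC content below 40%, 81.0% rose and 0 fell in limma (3 at an unadjusted p under 0.05 and 1 with limma-voom on recovered reads), and the median log2 change was 0.40. Among the 2123 members at 60% or above, 1.18% rose and 45.1% fell, and the median change was -0.15. Between 45% and 50%, 34.2% rose and 5.5% fell. Over 8918 protein-coding genes, Spearman's rho with the log2 change was -0.78 for the GC content of the transcript, -0.12 for that of the promoter and 0.26 for gene length. These genes share the same 6 libraries and are not independent, so the values are descriptions. Chromosomes followed their transcripts: 6.06% of the members on chromosome 19, with a median GC content of 60.3%, rose and 39.9% fell, while on chromosome 18, at 43.7%, 56.4% rose.

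The central 90 coding bases of 4 genes, chosen after their values were seen, are printed with G and C in capitals. The stretch of DDX21, also among the largest rises, was drawn too and is not printed. It held 51.1% G and C, against 44.9% of its whole coding sequence, and so did not show the difference. EPRS, the glutamyl-prolyl tRNA synthetase, was among the largest rises. WNT7B, a WNT ligand, and CHGA, chromogranin A, were among the largest falls. COL1A1, a chain of type I collagen, is as GC-rich as the genes that fell and was among the largest rises. Sequences are from GENCODE 29 (GRCh38), 5′ to 3′ on the coding strand. The stretch of EPRS lies in 1 coding exon at chr1:219997211-219997300 (minus strand), that of WNT7B in 1 at chr22:45931101-45931190 (minus strand), that of CHGA in 1 at chr14:92931534-92931623 (plus strand) and that of COL1A1 in 2 between chr17:50190919-50191466 (minus strand).
EPRS: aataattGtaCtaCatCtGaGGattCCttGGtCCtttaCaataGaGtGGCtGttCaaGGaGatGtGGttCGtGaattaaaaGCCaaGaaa
WNT7B: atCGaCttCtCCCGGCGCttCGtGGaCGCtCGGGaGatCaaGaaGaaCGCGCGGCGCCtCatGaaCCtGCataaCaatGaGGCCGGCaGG
CHGA: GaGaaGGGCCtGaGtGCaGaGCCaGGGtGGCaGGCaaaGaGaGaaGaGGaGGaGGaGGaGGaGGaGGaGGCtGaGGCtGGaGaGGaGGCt
COL1A1: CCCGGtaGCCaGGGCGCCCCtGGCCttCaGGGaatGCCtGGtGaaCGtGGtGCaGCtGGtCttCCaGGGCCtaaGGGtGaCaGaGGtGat
G and C made up 37.8% of this stretch in EPRS, 61.1% in WNT7B, 63.3% in CHGA and 64.4% in COL1A1, close to 42.2%, 62.8%, 61.9% and 65.1% of their whole coding sequences.

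Each comparison is therefore also given after smooth trends on transcript GC content and gene length were taken out of every library, which was possible for 11915 genes. On that scale 2977 genes (25.0%) were called, 1328 higher (11.1%) and 1649 lower (13.8%), so that 44.6% of the calls were rises. Of 3779 genes that rose as deposited and had such a value, 1150 rose again, 159 fell and 2470 were not called. Of 2401 that fell, 803 fell again and 0 rose. The median log2 change over all genes tested was 0.014 as deposited and -0.02 with the trends removed, and the gene groups below are read beside these shares and medians. The cause of the trend on GC content was not tested.

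**Figure D1:**
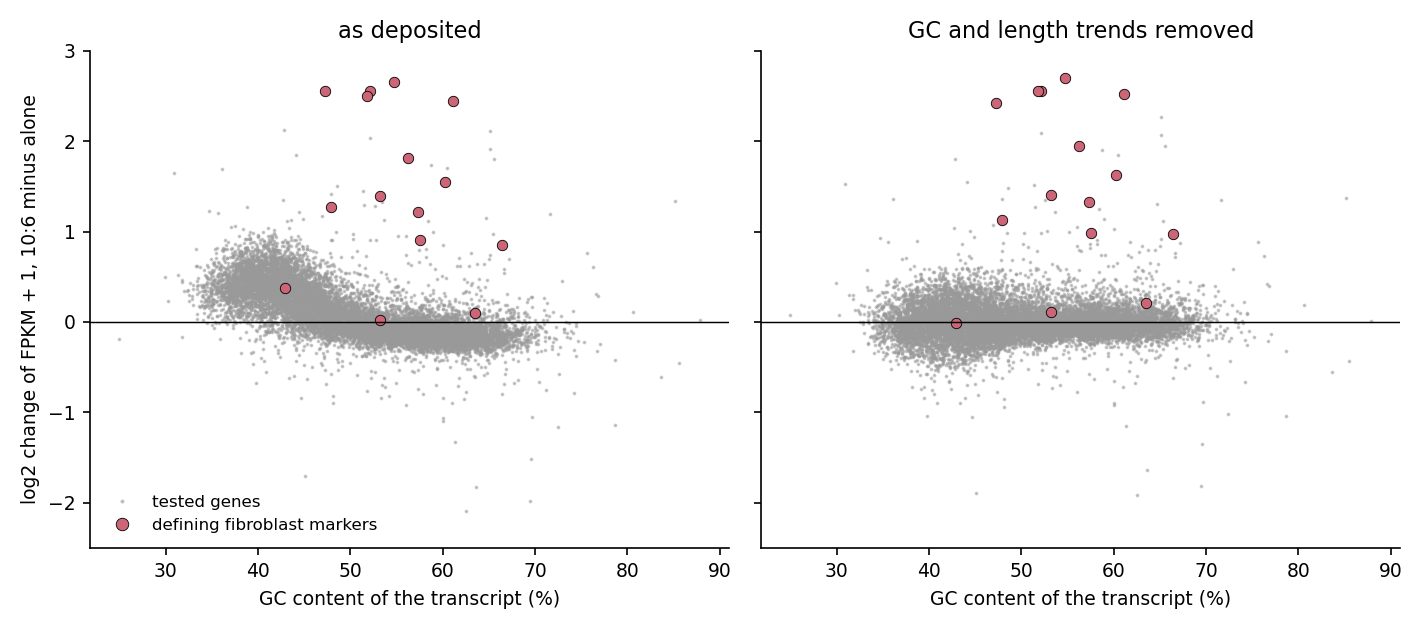
The log2 change of FPKM + 1 (10:6 minus alone, vertical axis) is plotted against the GC content of the transcript in percent (horizontal axis) for the tested genes in grey and the defining fibroblast markers in red, as deposited on the left and with GC and length trends removed on the right. The grey points slope downward on the left, from a median of 0.40 below 40% GC to -0.15 at 60% and above, and lie flat on the right, while most of the markers stay above them in both panels.

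Genes of the fibroblast matrix showed the largest rises. COL1A1 was at 9.30, 9.05 and 9.31 FPKM in the 3 libraries of BON-1 alone and at 53.52, 54.97 and 54.81 at 10:6. The groups lay far apart, and the level at 10:6 was 5.90 times that in BON-1 alone (log2 change 2.44 ± 0.0344 SE, limma adjusted p = 8.14e-13). COL1A2, the partner chain in type I collagen, was at 4.46, 3.46 and 4.31 alone and at 30.8, 31.6 and 30.0 at 10:6. Its log2 change of 2.65 ± 0.0674 (SE, limma adjusted p = 1.68e-10) was the largest of the protein-coding genes named by the rule in the methods. COL3A1, the chain of type III collagen, was at 1.467, 1.598 and 1.692 alone and at 13.8, 14.1 and 14.6 at 10:6. Its mean at 10:6, 14.2 ± 0.438, was 8.94 times that in BON-1 alone.

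Of 6 tested fibrillar collagens, 5 rose and 0 fell, with a median log2 change of 1.99, with 5 and 0 called once the trends were removed and 5 and 1 after quantile normalization. COL5A1 and COL5A2, chains of the type V collagen that helps to start type I fibrils, had log2 changes of 1.55 and 1.27. Both passed the filter only through co-culture, COL5A1 with 0.581 alone and 3.62 at 10:6 and COL5A2 with 0.328 ± 0.00841 and 2.20 ± 0.125, so a difference in them had to follow. COL27A1, a collagen of cartilage, was not called, at 5.84 and 5.55. Among type VI collagens, which form beaded microfibrils, COL6A2 rose from 5.05 to 9.90 and COL6A3 from 1.27 to 4.94. COL6A1 was at 22.39 and 24.01, which limma did not call as deposited (adjusted p = 0.091) and called with the trends removed (log2 change 0.21, adjusted p = 0.00239). Of 15 basement membrane genes, whose proteins underlie epithelia and vessels, 4 rose and 2 fell, or 5 and 1 with the trends removed. LAMB1 and LAMA3, laminin chains, rose from 26.6 ± 0.910 to 36.3 ± 0.211 and from 7.39 ± 0.461 to 11.2 ± 0.186, and AGRN, the proteoglycan agrin, fell from 96.9 ± 1.79 to 86.6 ± 1.30.

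Matricellular genes, which encode matrix proteins that signal to cells, moved less evenly. SPARC, which binds collagen, was at 4.69, 5.58 and 4.87 FPKM alone and at 34.0, 34.4 and 35.4 at 10:6. These groups did not overlap, and the log2 change was 2.56 ± 0.0592 (SE, limma adjusted p = 9.37e-11). FN1, fibronectin, was already present in BON-1 alone, at 21.5, 21.3 and 22.4, and stood at 42.6, 42.7 and 40.6 at 10:6. Of 17 tested matricellular genes and glycoproteins, 9 rose and 1 fell, with a median log2 change of 0.18, or 8 and 0 with the trends removed. Among those tested, 3 passed the filter only through co-culture. FSTL1, a follistatin-like glycoprotein and one of these 3, rose from 0.699 ± 0.0966 to 5.10 ± 0.0683. TGFBI, a collagen-binding protein induced by TGF-beta, rose from 48.4 ± 0.755 to 70.4 ± 1.76. IGFBP7, a secreted binding protein of insulin-like growth factors, was at 2.64, 2.91 and 3.09 alone and at 16.5, 13.8 and 14.3 at 10:6. SPON2, a secreted matrix protein, rose from 1.95 ± 0.217 to 5.58 ± 0.590.

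Matrix enzymes and their inhibitors included 10 that rose and 2 that fell of 21 tested, or 10 and 1 with the trends removed. LOXL2, which crosslinks collagen, rose from 2.11 ± 0.0723 to 4.43 ± 0.0842. P4HA1, a prolyl hydroxylase that stabilizes the collagen helix, rose from 8.33 ± 0.0859 to 13.9 ± 0.586. MMP14, a membrane-bound metalloproteinase, rose from 13.7 ± 0.746 to 17.8 ± 0.694. ADAMTS2, which trims procollagen, passed the filter only through co-culture and rose from 0.190 to 1.07. Of 16 growth factors and cytokines of stroma, 4 rose and 4 fell, or 6 and 2 with the trends removed. CXCL8, a chemokine that attracts neutrophils, rose from 9.62 ± 0.513 to 15.4 ± 1.74, and TGFB3, a TGF-beta ligand, fell from 93.1 ± 2.62 to 82.8 ± 0.599.

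Contractile genes included large rises beside genes that were not called or fell. ACTA2, smooth muscle actin, was at 6.49, 5.44 and 6.05 FPKM in BON-1 alone and at 37.9, 38.3 and 39.3 at 10:6. The lowest library of 10:6 was thus far above the highest of BON-1 alone, and the log2 change was 2.50 ± 0.0538 (SE, limma adjusted p = 5.96e-11). TAGLN, the actin-binding transgelin, was at 5.94, 5.61 and 6.81 alone and at 24.7, 24.6 and 22.7 at 10:6. MYL9, a myosin light chain, was at 1.85, 1.72 and 1.68 alone and at 8.16, 7.52 and 8.12 at 10:6. Of 19 tested contractile genes, 10 rose and 3 fell, with a median log2 change of 0.19, or 10 and 1 with the trends removed, and 2 passed the filter only through co-culture. CNN1, calponin, was one of these, at 0.219 ± 0.137 and 1.43 ± 0.274. TPM1, a tropomyosin expressed in many cells, rose from 67 ± 2.49 to 84.6 ± 1.65, while TPM2, another tropomyosin, was called higher only with the trends removed, at 107.1 and 108. FLNA, filamin A, which crosslinks actin, fell from 115.3 ± 1.35 to 106.1 ± 3.03, as deposited alone.

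SRF, the serum response factor, binds the CArG box of many contractile genes, searched here as CCNNNNNNGG with A or T at the 6 inner positions, which reads the same on both strands. The box was present in the RefSeq promoter window (250 bases before to 50 after the gene's start, GRCh38.p14) of 5 of 17 contractile genes with a sequence, against 1.29% of 27305 promoters and 1.06% of those of protein-coding members. ACTG2, enteric smooth muscle actin, held 2 boxes and rose. The windows of MYLK, the myosin light chain kinase, and TPM4, a tropomyosin, held 1 each, and both genes rose too. Each window covers 1 start per gene, and other starts were not searched. That of MYLK lies at chr3:123620499-123620798, and whether the kinase transcript starts there was not checked. CNN2, a calponin, was called higher only with the trends removed, and FLNA fell as deposited alone. The window of ACTA2 held no exact match. Boxes with a G or C at an inner position were not searched for, so this does not show that ACTA2 lacks a CArG box. The windows of TAGLN and MYL9 were not analysed here. The stretches with the boxes in capitals, chosen after the values were seen, lie at chr2:73892883-73892959 (plus strand) for ACTG2 and at chr19:16067350-16067389 (plus strand) for TPM4, both upstream of the start.
ACTG2: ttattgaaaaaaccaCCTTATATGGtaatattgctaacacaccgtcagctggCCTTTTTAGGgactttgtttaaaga
TPM4: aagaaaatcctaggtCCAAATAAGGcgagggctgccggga
ACTG2 was at 0.135, 0.412 and 0.291 FPKM alone and at 2.00, 2.30 and 1.97 at 10:6, and it passed the filter only through co-culture. TPM4 rose from 30.8 ± 0.891 to 42.1 ± 0.955. MYLK stood at 5.52 ± 0.284 and 6.59 ± 0.0964, a rise as deposited (limma adjusted p = 0.0343) that was not called with the trends removed (adjusted p = 0.269). A match of letters is a description and was not tested as a binding site.

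Surface and lineage genes of fibroblasts followed the matrix. Of 9 tested, 7 rose and 0 fell, with a median log2 change of 0.37, or 6 and 0 with the trends removed, though THY1, PDGFRB and CD248 passed the filter only through co-culture. THY1, a surface glycoprotein of fibroblasts, was at 0.638, 0.565 and 0.543 FPKM alone and at 2.67, 2.59 and 2.73 at 10:6. PDGFRB, a receptor of platelet-derived growth factor, was at 0.154, 0.148 and 0.237 alone and at 1.22, 1.19 and 1.23 at 10:6. For both genes the filter fixed that the groups did not overlap. CD248, endosialin, rose from 0.237 to 1.44. PDGFRA, the related receptor, rose from 2.44 to 3.46 (log2 change 0.37, limma adjusted p = 0.00165), but was at -0.01 with the trends removed (adjusted p = 0.912) and was not called after quantile normalization. VIM, the intermediate filament vimentin, was abundant in both groups, at 76.4 and 83.3. Of 8 tested genes of mesenchymal transition, 7 rose and 0 fell, and 6 and 0 with the trends removed.

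As a list, 15 of 20 defining fibroblast markers were tested, 13 rose, 0 fell and the median log2 change was 1.39, while 4 of the 15 passed the filter only through co-culture. With the trends removed 14 rose and 0 fell. S100A4, also a metastasis-associated gene of carcinoma cells, stood at 2281 ± 44.0 and 2315 ± 145 and was not called as deposited (limma adjusted p = 0.755), and was with the trends removed (log2 change 0.11, adjusted p = 0.0336). The summed FPKM of the other 19 markers was 65.3, 64.3 and 66.2 in BON-1 alone and 250.3, 252.1 and 251.2 at 10:6. The 5 markers below the filter had more reads in co-culture as well. Over 3 libraries, the proteoglycan DCN had 6 reads alone and 63 at 10:6, the serine protease FAP had 3 and 25, and the matricellular protein POSTN had 11 and 121. No fibroblast marker was at 0 in either group. The markers are themselves members of the matrix, contractile or surface lists above, so their values and those lists are not independent. The part of these values in those lists and in other changes was not tested. In bulk RNA, more cells of a type and more RNA per cell cannot be told apart.

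Summed levels of markers of 2 other cell types overlapped between the groups. Genes present in BON-1 alone, such as CDH5 at 28.8 and CD68 at 6.42, made up most of both sums. The overlap therefore cannot show whether a small number of such cells was present. The summed FPKM of 20 leukocyte markers was 9.46 to 12.2 alone and 11.3 to 12.6 at 10:6, with 9 genes at 0 in the 3 libraries of 10:6, among them CD3D, CD3E and TYROBP. Of the 2 that were tested, CD68, a lysosomal protein of macrophages, was called higher only with the trends removed, and LYZ, lysozyme, rose from 1.81 to 2.68 (limma adjusted p = 0.0279), a call that ended when any of 4 single libraries was left out (adjusted p from 0.0539 to 0.121) and with the trends removed. The summed FPKM of 14 endothelial markers was 53.6 to 54.7 alone and 52.4 to 55.6 at 10:6, with EMCN and PLVAP at 0 at 10:6. Of 5 tested, KDR, a VEGF receptor, rose from 10.9 to 13.2 and CDH5, VE-cadherin, fell from 28.8 to 26.4, a call that ended without BON-1 alone replicate 1 or 3 or co-culture replicate 3, and neither was called with the trends removed.

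**Figure D2:**
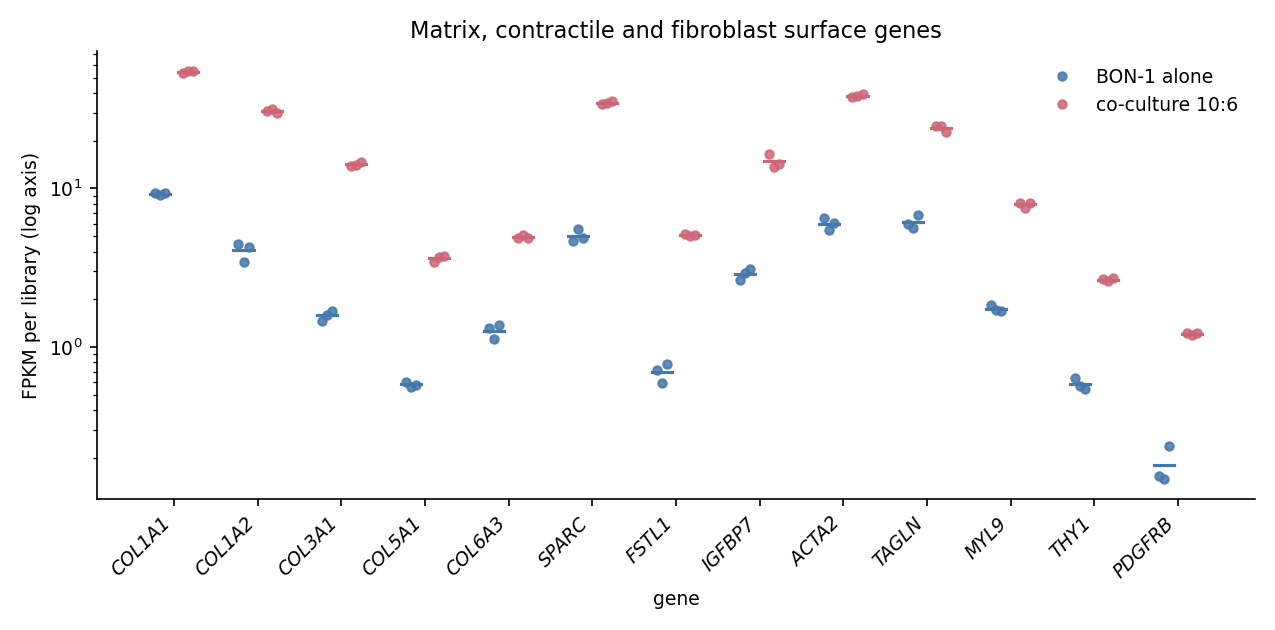
FPKM of each library on a log axis for 13 matrix, contractile and fibroblast surface genes, with BON-1 alone in blue and co-culture 10:6 in red, 1 point per library and a bar at the mean of n = 3. For every gene shown the 3 red points lie above the 3 blue ones, as for COL1A1 at 53.5 to 54.97 against 9.05 to 9.31. COL5A1, FSTL1, THY1 and PDGFRB passed the filter only through co-culture, so for them this had to follow. All 13 were picked from genes that rose, so the separation does not describe these classes as a whole. Not shown are COL6A1, COL27A1 and S100A4, which were not called as deposited, and FLNA, which fell as deposited.

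Receptors through which cells sense matrix and growth factors included 13 that rose and 2 that fell of 29 tested, with a median log2 change of 0.06, or 9 and 5 both with the trends removed and after quantile normalization. ITGB1, the integrin beta chain shared by collagen and fibronectin receptors, was at 45.7, 43.4 and 47.6 FPKM alone and at 73.5, 85.6 and 81.0 at 10:6. Its log2 change was 0.80 as deposited and 0.37 with the trends removed. ITGA6, a laminin-binding chain, rose from 7.85 ± 0.211 to 14.1 ± 0.454, ITGA2, a collagen-binding chain, from 1.07 ± 0.136 to 2.80 ± 0.0324, and MET, the receptor of hepatocyte growth factor, from 3.41 to 6.51. FGFR4, a receptor of fibroblast growth factors, fell from 63.3 ± 0.167 to 51.9 ± 1.34. CXCR4, the receptor of CXCL12, was at 3.15 ± 0.163 and 2.50 ± 0.463, not called as deposited (limma adjusted p = 0.0723) and called lower with the trends removed (adjusted p = 0.00372).

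Targets of TGF-beta included 5 that rose and 2 that fell of 16, or 7 and 2 with the trends removed, and targets of YAP and TEAD, factors that respond to stiffness and cell density, 7 and 1 of 15, or 3 and 1 with the trends removed and 3 and 2 after quantile normalization. CTGF, a matricellular target of both, rose from 18.4 ± 0.774 to 22.9 ± 1.38 and ID3, a TGF-beta and BMP target, fell from 306.6 ± 9.87 to 261.9 ± 5.78. TEAD1 itself rose from 3.40 ± 0.157 to 6.34 ± 0.203. Hedgehog, WNT and NOTCH genes included 5 that rose and 9 that fell of 23, or 4 and 5. NOTCH3, a receptor of smooth muscle and pericytes, rose from 0.402 ± 0.028 to 1.37 ± 0.123 but passed the filter only through co-culture, and the hedgehog ligand IHH fell from 48.1 ± 0.263 to 36.2 ± 2.26. Immediate early genes, first to respond to growth signals, had 5 rises and 9 falls of 26, an excess that turned to 7 and 1 with the trends removed. FOS fell from 222.5 ± 3.84 to 194.1 ± 2.55 and on that scale still fell.

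Interferon-stimulated genes included 7 that rose and 0 that fell of 20 tested, with a median log2 change of 0.08, or 8 and 0 with the trends removed and 6 and 5 after quantile normalization. PARP14 and PARP9, ADP-ribosyltransferases, rose from 0.530 ± 0.0253 to 1.31 ± 0.0689 and from 1.14 ± 0.0472 to 2.18 ± 0.186, though PARP14 passed the filter only through co-culture. IRF9, a transcription factor of the interferon response, rose from 16.6 ± 0.842 to 20.6 ± 0.957. Abundant members were not called, among them ISG15 at 190.4 and 177.9 and IFITM3 at 107.5 and 109.4. Of 16 genes of MHC class I presentation, 6 rose and 1 fell, or 6 and 0 with the trends removed and 6 and 4 after quantile normalization. HLA-B, a class I heavy chain, rose from 40.7 ± 1.19 to 48.6 ± 2.03 on both scales, while the rise of B2M, the light chain, from 272.8 ± 4.23 to 375.1 ± 9.33, was not called with the trends removed.

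Chaperones and folding enzymes rose more often than they fell. Of 30 heat shock and chaperonin genes, 18 rose and 9 fell, with a median log2 change of 0.22, or 12 and 7 with the trends removed. HSPD1, the mitochondrial chaperonin, was at 264.1, 253.7 and 255.2 FPKM alone and at 411.2, 443.1 and 447.2 at 10:6. CCT8, a subunit of the cytosolic chaperonin, rose from 59.4 ± 0.503 to 95.5 ± 1.79, and HSPA4, a co-chaperone of HSP70, from 32.2 ± 0.707 to 51.3 ± 0.799. HSF1, the transcription factor of the heat shock response, fell from 77.9 ± 0.768 to 65 ± 4.40. Of 27 genes of folding in the endoplasmic reticulum, 18 rose and 4 fell, or 10 and 2 with the trends removed. HSP90B1, a chaperone there, rose from 81.5 ± 1.30 to 132.6 ± 3.97, and CANX, calnexin, from 79.3 to 140.7. ATF4 targets, which answer amino acid shortage, included 9 rises and 5 falls of 21, or 5 and 1. ASNS, asparagine synthetase, rose from 116.2 ± 0.306 to 143.7 ± 1.91.

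EPRS and DDX21, which serve protein synthesis and ribosome assembly, were among the 15 largest rises under the naming rule. EPRS was at 10.4, 10.2 and 9.91 FPKM alone and at 23.7, 22.5 and 23.4 at 10:6, with no overlap (log2 change 1.11 ± 0.0442 SE, limma adjusted p = 1.54e-08, and 0.75 with the trends removed). Of 35 aminoacyl-tRNA synthetases, which charge tRNAs with amino acids, 12 rose and 8 fell with a median log2 change of -0.01, or 9 and 6 with the trends removed and 12 and 13 after median-of-ratios rescaling. TARS rose from 47 ± 1.11 to 88.6 ± 1.88, NARS from 31.2 ± 0.518 to 57.4 ± 2.92 and IARS from 31.4 ± 1.37 to 47.7 ± 0.491. MARS, with a GC content of 53.7%, fell from 156 ± 2.31 to 145.1 ± 0.893 as deposited alone, and KARS, at 139.3 and 142.2, was called only with the trends removed, as lower. DDX21, a helicase of ribosomal RNA processing, was at 14.6, 13.7 and 14.8 alone and at 27.6, 32.1 and 32.2 at 10:6.

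Of 50 nuclear pore and transport genes, 31 rose and 11 fell, with a median log2 change of 0.39, or 21 and 10 with the trends removed and a median of 0.03. Their median transcript GC content was 44.5%, against 50.4% for all members. NUP160 and NUP133, scaffold nucleoporins, rose from 6.84 ± 0.163 to 12.7 ± 0.342 and from 6.71 ± 0.145 to 11.6 ± 0.270, and XPO1, the main nuclear export receptor, from 9.01 ± 0.468 to 17.5 ± 0.735. NUP188, another scaffold nucleoporin, fell from 34.8 ± 0.551 to 27.6 ± 0.130. Of 47 spliceosome and SR protein genes, 19 rose and 19 fell, or 10 and 18 with the trends removed. SF3B1, which helps to recognize the branch point, rose from 18.5 ± 0.237 to 36.6 ± 0.739. Chromatin remodellers included 19 rises and 10 falls of 39, or 10 and 6.

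Genes of mitosis included 24 that rose and 8 that fell of 37 tested, an excess that turned to 7 and 11 with the trends removed. Their median transcript GC content was 43.2%. TOP2A, the topoisomerase that untangles chromosomes, was at 6.87, 6.48 and 7.39 FPKM alone and at 14.2, 15.5 and 14.5 at 10:6, a log2 change of 0.99, or 0.53 with the trends removed. BUB1B, a spindle checkpoint kinase, and NUSAP1, a spindle protein, rose on both scales, from 12.3 ± 1.19 to 23.3 ± 0.329 and from 15 ± 1.08 to 28.4 ± 0.992. PLK1, a mitotic kinase with a GC content of 57.3%, fell from 149.8 ± 1.82 to 125.2 ± 2.06 on both scales, and CDC20, an activator of mitotic exit, fell from 141.2 ± 3.82 to 123.8 ± 2.58 as deposited alone. Of 46 DNA replication genes, 16 rose and 15 fell, which turned to 3 and 14 with the trends removed. RRM1, a subunit of ribonucleotide reductase, rose from 32 ± 0.313 to 53.5 ± 1.36 and MCM7, a helicase subunit, fell from 195 ± 4.27 to 163.9 ± 1.248. FANCI, of the Fanconi anaemia DNA repair pathway, rose from 10.5 to 22.5.

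Genes of energy and lipid metabolism fell more often than they rose. Of 78 nuclear genes of oxidative phosphorylation, 13 rose and 32 fell, with a median log2 change of -0.09, or 5 and 30 with the trends removed. UQCRC2, a core subunit of complex III, rose from 47.3 ± 2.14 to 76.6 ± 1.80, and NDUFS1, of complex I, from 22.2 ± 0.622 to 32.4 ± 0.418. Of 77 mitochondrial ribosomal proteins, 20 rose and 28 fell, or 4 and 28 with the trends removed. MRPS22 rose from 25 ± 1.23 to 34.7 ± 0.987 and MRPS24 fell from 92.5 ± 1.17 to 73.3 ± 2.81. Of 85 cytosolic ribosomal proteins, 20 rose and 21 fell as deposited, 10 and 28 with the trends removed and 25 and 14 after quantile normalization, so no direction held. RPL6 rose from 223.7 ± 2.96 to 306.7 ± 2.20 and RPLP1 fell from 4596 ± 89.6 to 3923 ± 198. These genes have pseudogenes with near-identical sequence, among which reads are uncertain.

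Glycolysis and hypoxia genes had 8 rises and 13 falls of 32, or 4 and 9 with the trends removed. PFKL, a phosphofructokinase, and GPI, which makes fructose 6-phosphate, fell from 51.9 ± 0.447 to 41.2 ± 0.647 and from 118.5 ± 0.730 to 99.2 ± 0.241. HIF1A, the oxygen-regulated transcription factor, rose from 4.81 ± 0.366 to 9.20 ± 0.790. Of 32 genes of cholesterol and fatty acid synthesis, 10 rose and 15 fell, or 3 and 11 with the trends removed. Within this pathway HMGCS1, which acts early in cholesterol synthesis, rose from 11.7 ± 0.153 to 19.2 ± 0.939, whereas MVD, a later enzyme, fell from 95.6 ± 2.36 to 72.5 ± 3.74 and FASN, fatty acid synthase, from 119.5 ± 1.68 to 91.9 ± 2.05. All of these moved the same way on both scales. Of 14 tubulins and cytoplasmic actins, 0 rose and 10 fell, or 0 and 5, with TUBA4A at 596.6, 586.7 and 595.7 alone and 470.1, 470.3 and 470.1 at 10:6. Where 0 members of a group were called one way as deposited in limma, an unadjusted p under 0.05 gave 0 falls for the fibrillar collagens, fibroblast surface genes, mesenchymal transition genes and defining fibroblast markers, 1 fall for the interferon-stimulated genes and 0 rises for the tubulins and actins. Counts with limma-voom on the recovered reads were the same for those groups.

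**Figure D3:**
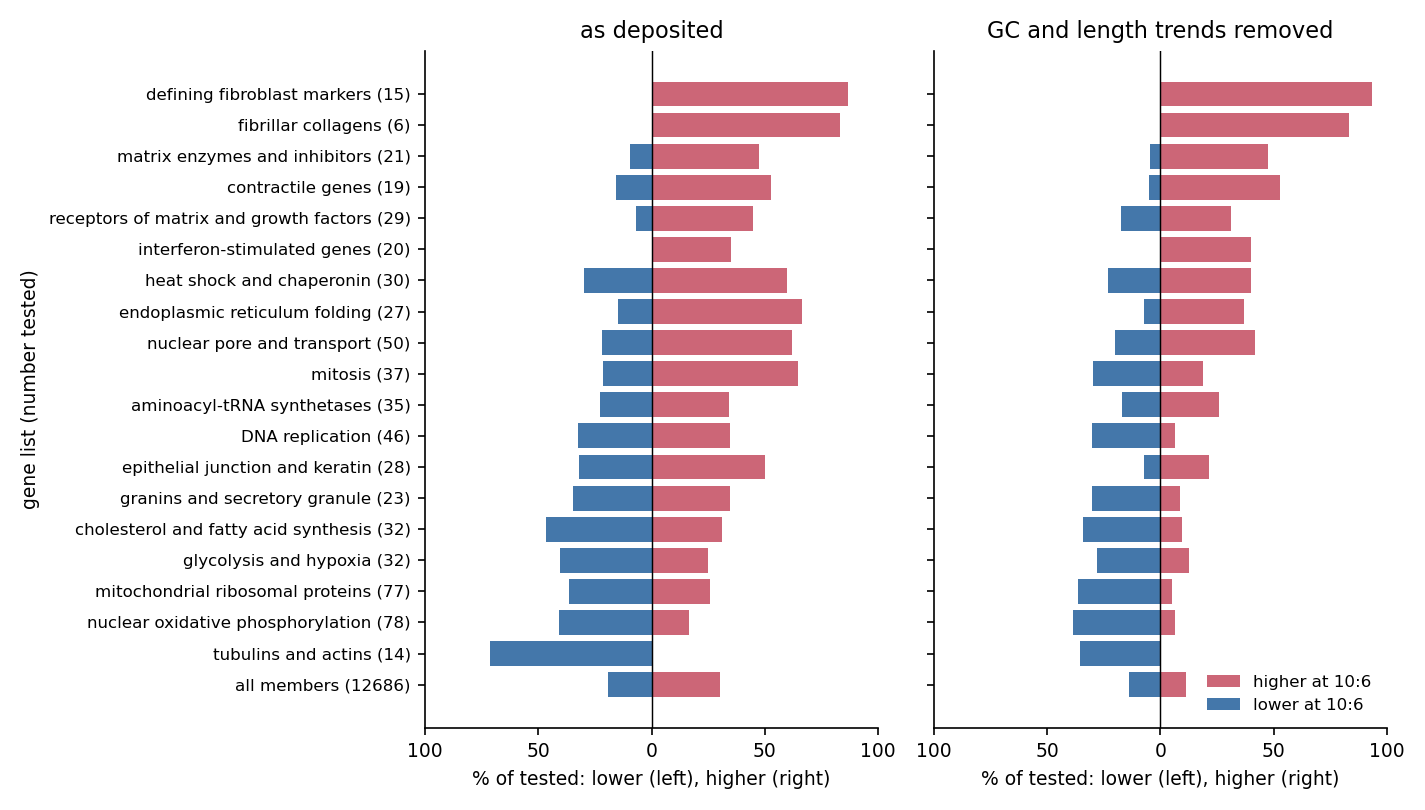
For each gene list, with the number tested in brackets, the bars give the percent of tested genes called higher at 10:6 (red, to the right) and lower (blue, to the left) in limma, as deposited and with GC and length trends removed. Over all members the bars reach 30.4% and 19.3% on the left panel and 11.1% and 13.8% on the right, and mitosis and DNA replication have their longer bar on the other side once the trends are removed.

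Among genes of BON-1 secretion, the granins moved in opposite directions. CHGA was at 1344, 1374 and 1322 FPKM alone and at 1019, 960.6 and 945.2 at 10:6. It fell with no overlap (log2 change -0.47 ± 0.0318 SE, limma adjusted p = 5.67e-07, and -0.32 with the trends removed). SCG2, secretogranin II, was at 743.2, 752.9 and 744.1 alone and at 1398, 1394 and 1409 at 10:6. Its level at 10:6 was 1.88 times that in BON-1 alone, with a log2 change of 0.91 as deposited and 0.58 with the trends removed. CHGB, chromogranin B, rose from 218.7 ± 2.82 to 274.1 ± 8.34, and its log2 change was larger with the trends removed, 0.38 against 0.32. VGF, a peptide precursor of granules, fell from 426.2 to 341.9. SCG3, secretogranin III, and PCSK1, a prohormone convertase, rose as deposited, from 25.7 to 35.8 and from 14.7 to 20.3, and neither was called with the trends removed. CPE, carboxypeptidase E, rose and SYP, synaptophysin, fell by little, from 122.6 ± 1.63 to 137.5 ± 1.69 and from 61.1 ± 1.57 to 56.4 ± 1.99, both as deposited alone. Of 23 tested genes of the secretory granule, 8 rose and 8 fell, or 2 and 7 with the trends removed.

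Hormone and peptide genes varied more between libraries. CGA, the alpha subunit shared by the glycoprotein hormones, was at 15.2, 83.8 and 28.7 FPKM alone and at 71.8, 196.2 and 233.8 at 10:6. It was called (log2 change 2.12, limma adjusted p = 0.00727), although the groups overlapped, with replicate 2 of BON-1 alone above replicate 1 of 10:6. The beta subunit genes CGB3 and CGB8 were at 1.17, 4.48 and 1.18 and at 0.875, 5.82 and 1.92 alone, and at 4.83, 10.5 and 15.2 and at 6.01, 15.7 and 16.2 at 10:6. Replicate 2 was the highest of BON-1 alone for all 3 genes. These beta subunit genes are near-identical copies among which reads are uncertain, and the call of another copy, CGB5, ended without BON-1 alone replicate 1 (limma adjusted p = 0.0534) or 10:6 replicate 3 (0.0545). REG4, a secreted lectin, was at 10.2, 10.6 and 12.3 alone and at 8.78, 6.84 and 7.44 at 10:6, and its fall of 0.47 on the log2 scale was 0.69 with the trends removed. TTR, transthyretin, was at 7.32, 6.40 and 5.42 alone and 4.06, 4.85 and 3.90 at 10:6, and its fall was not called without BON-1 alone replicate 1 (limma adjusted p = 0.0578). Of 13 tested hormones and secreted peptides, 4 rose and 4 fell on either scale.

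Lineage transcription factors showed small changes. Of 22 tested, 6 rose and 5 fell, which turned to 2 and 3 with the trends removed and 4 and 7 after quantile normalization. NKX2-2, a factor of endocrine progenitors, was at 20.03, 20.82 and 20.2 FPKM alone and at 15.58, 14.64 and 15.04 at 10:6, and fell on both scales. NEUROD1, which drives endocrine differentiation, and SOX4, a factor of progenitors, rose from 31.8 ± 1.87 to 41.2 ± 0.917 and from 35.3 ± 0.782 to 48.3 ± 0.961. INSM1, a zinc finger factor of neuroendocrine cells, fell from 195.2 ± 2.48 to 170.5 ± 8.68 as deposited alone. SSTR2, the somatostatin receptor targeted in patients with such tumours, was at 6.93 ± 0.572 and 7.68 ± 0.701 and was not called (limma adjusted p = 0.21). SETD2, a histone methyltransferase mutated in some of these tumours, rose from 1.72 ± 0.124 to 3.07 ± 0.162.

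Epithelial genes included 14 that rose and 9 that fell of 28, or 6 and 2 with the trends removed. DSP, the desmosomal plakin desmoplakin, rose from 16.1 ± 0.131 to 27.2 ± 0.681 and DSG2, a desmosomal cadherin, from 6.78 ± 0.359 to 13.2 ± 0.442. TJP1, of tight junctions, rose from 6.37 ± 0.283 to 10.7 ± 0.0844, while CLDN4, a claudin of the same junctions, fell from 230.2 ± 1.45 to 193.3 ± 5.02. CDH1, E-cadherin, rose from 79.8 ± 1.61 to 86 ± 0.436 and the keratin KRT8 fell from 2275 ± 17.8 to 2102 ± 63.9, both as deposited alone. The largest fall in a protein-coding gene under the naming rule was that of WNT7B, at 15.6, 15.5 and 16.1 alone and 10.96, 10.57 and 10.35 at 10:6 (log2 change -0.52 ± 0.0456 SE, limma adjusted p = 3.48e-06, and -0.41 with the trends removed). EVPL, the junctional plakin envoplakin, fell from 21.9 ± 0.380 to 15.8 ± 0.467, KIAA1324, a membrane protein of secretory cells, from 15.9 to 11.7, and PTF1A, a factor of pancreas development, from 26.8 ± 0.761 to 19.7 ± 1.42, the last as deposited alone (limma adjusted p = 0.0568 with the trends removed).

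Some falls were larger with the trends removed, in genes of low GC content such as AKR1C2, at 40.2%. AKR1C1, an aldo-keto reductase of steroid metabolism, was at 41.5, 40.2 and 39.2 FPKM alone and at 31, 30.3 and 30.6 at 10:6, and its log2 change went from -0.38 to -0.74. Its close relative AKR1C2 stood at 30 ± 1.36 and 26.1 ± 0.326, with changes of -0.19 and -0.62. The 2 genes have similar sequences, so reads between them are uncertain. TMEM18, a nuclear membrane protein, and ADI1, of the methionine salvage pathway, fell by 0.53 and 0.52 on that scale and by 0.31 and 0.18 as deposited.

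**Figure D4:**
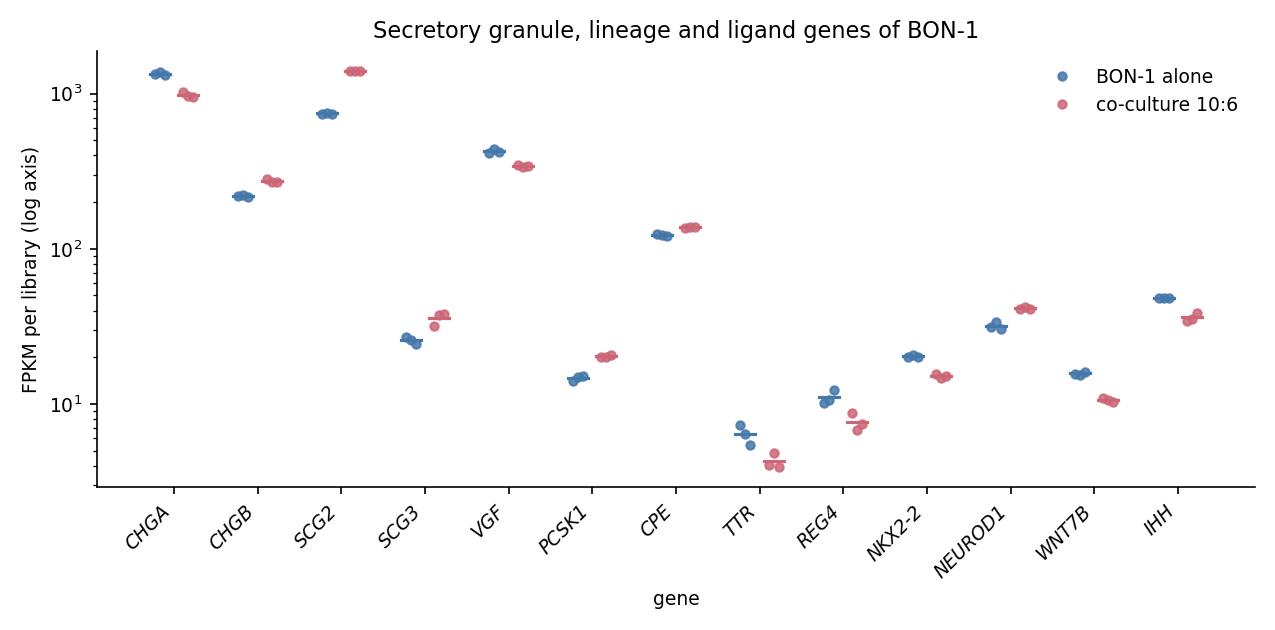
FPKM of each library on a log axis for 13 genes of the secretory granule, peptides, lineage factors and ligands, with BON-1 alone in blue and co-culture 10:6 in red, 1 point per library and a bar at the mean of n = 3. SCG2 lies at 743.2 to 752.9 alone and 1394 to 1409 at 10:6, while CHGA, WNT7B and IHH lie lower at 10:6.

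The levels at 10:2 and 10:4 place the 10:6 group within the series. These comparisons share the libraries of BON-1 alone, so they are given side by side only. The summed FPKM of the 19 fibroblast markers without S100A4 was 65.3 ± 0.927 alone, 98.9 ± 2.01 at 10:2, 178.9 ± 2.74 at 10:4 and 251.2 ± 0.869 at 10:6, with no overlap between any neighbouring groups. COL1A1 stood at 9.22, 18.0, 37.4 and 54.4 and ACTA2 at 5.99, 11.04, 27.6 and 38.5. Of the rise seen at 10:6, COL1A1 had 19.5% at 10:2 and 62.3% at 10:4, and ACTA2 had 15.5% and 66.4%. Among the defining fibroblast markers that rose, PDGFRA differed, with 45.4% and 100%. The others had 12.7% to 23.3% at 10:2 and 55.6% to 74.3% at 10:4. EPRS stood at 10.2, 19.4, 25.1 and 23.2, with 71.0% of its rise at 10:2 and 114% at 10:4. DDX21 had 66.9% and 119%, SERINC1, a membrane protein of serine lipid synthesis, 71.8% and 93.5%, and SCG2 59.7% and 85.6%. TOP2A had 79.6% at 10:2 and 158% at 10:4. Over the 4 groups CHGA stood at 1347, 1154, 1021 and 975.1, and WNT7B at 15.7, 12.9, 11.9 and 10.6.

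**Figure D5:**
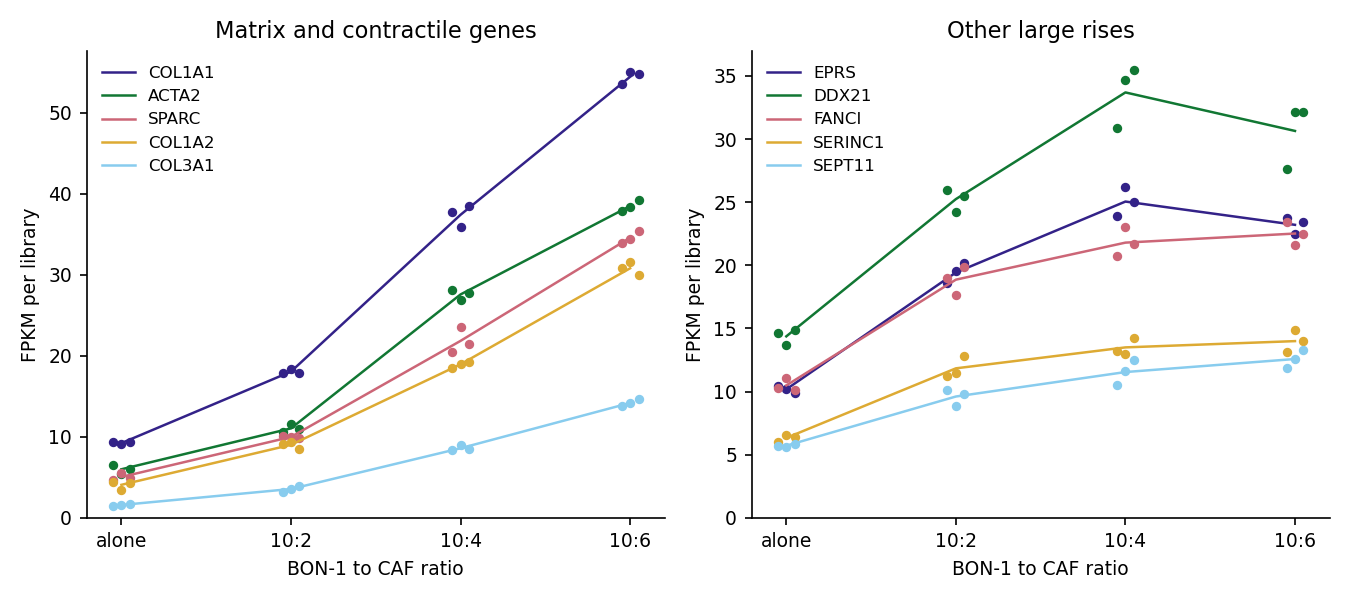
FPKM of each library (points) and group means (lines) over BON-1 alone and co-cultures at 10:2, 10:4 and 10:6, for 5 matrix and contractile genes on the left and 5 other large rises on the right. The genes on the left rise with each step, COL1A1 from 9.22 to 54.4, whereas EPRS on the right already stands at 19.4 at 10:2 and at 23.2 at 10:6.

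Of members that are not protein-coding, 196 (11.0%) rose and 99 (5.57%) fell, against 33.6% and 21.5% of protein-coding members. Non-coding genes that changed at least 2-fold were small: of 22, 15 rose and 7 fell, and none had more than 26 reads in a library. They were mostly small nucleolar RNAs and miRNA precursors, which poly(A) selection captures poorly. SNORA78, a small nucleolar RNA, had 26, 23 and 19 reads alone and 9, 8 and 6 at 10:6. MIR6772, a miRNA precursor, had 2, 4 and 5 reads alone and 0 in the 3 libraries of 10:6, at which no fold can be given.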

How the data were processed

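Levels came from a table of FPKM values that the authors deposited; per the submitters' processing notes, HISAT2, featureCounts and the build hg38 were used, with versions and settings not given in the sources used here. Groups and columns were matched by each sample's title, and no column was left over. Depths were read from the commonest ratios of FPKM between libraries. With them, 99.97% of all 267349 nonzero values were whole multiples of 1 read (tolerance 1e-07). Members and gene lists were chosen with earlier results of these data known.

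The fit was run on log2(FPKM + 1) in limma 3.58.1 under R 4.3.3. It used all 12 libraries, a mean for each group and a variance trend, and p-values were two-sided and adjusted by Benjamini-Hochberg over all 12686 members. For the second scale, a natural spline with 5 degrees of freedom each on transcript GC content and log10 gene length was fitted per library to the deviations from gene means and taken out. GC content came from the longest protein-coding transcript in GENCODE 29. This was chosen after seeing the data, in place of the longest transcript of any type, with which 3127 genes were called (1407 higher, 1720 lower). A listed family of mitochondrially encoded RNAs matched no gene name and was not analysed here.

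Named protein-coding genes passed the test, averaged 5 FPKM or more in whichever group was higher and did not overlap, and were the 15 largest rises and falls, or the 10 largest with trends removed. Added to them were the 3 smallest p of each list, changes of at least 4-fold and the fibroblast markers. Other members of lists were named as examples after their values were seen, and fewer genes were named than the rule allows. Methods were tested on simulated reads with 200 changed genes, with and without an added GC trend of a set size. The fit as deposited called 29.5% of unchanged genes with that trend and 0.043% without it. With trends removed, these shares were 0.0601% and 0.0602%. At 1.25-fold, 6% of changed genes were recovered in either fit without the trend. With it, 38% were recovered as deposited and 0% with trends removed. At 2-fold, 94.0% or 95.9% were recovered. Tables were made with pandas 2.3.3 and numpy 2.4.6 under Python 3.11.15, and figures with matplotlib 3.10.9.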

Additional observations from a re-analysis of the deposited data

How the results depend on the processing

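With all 6 libraries kept and the GC and length trends left in, the count of calls stayed within 1.5 times the 6303 reported. It was 6312 with a pseudocount of 0.1, 6024 with no filter, 6646 with median-of-ratios rescaling and 6574 with quantile normalization. The 6 libraries fitted alone gave 6523, and limma-voom on recovered reads gave 6767. Quantile normalization moved the balance to 2936 higher and 3638 lower, from 3856 and 2447. Requiring an FPKM of 5 lowered the rises to 2196. Leaving out 1 library gave 5415 to 6097 calls, 3456 to 3746 higher and 1929 to 2351 lower. Removing GC and length trends gave 2977 calls with 1328 higher, and leaving out 1 library then gave 2219 to 2468, 1051 to 1148 higher and 1168 to 1320 lower; without the filter it gave 6703, 2674 higher and 4029 lower.

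The share of calls that were higher went from 61.2% to below 50% with the FPKM filter of 5 (47.8%), quantile normalization (44.7%), trends removed (44.6%) and trends removed with the block (45.5%). With trends removed, with or without the block, log2 changes turned sign for HIST1H2BK (0.0266), PDGFRA (-0.0132), PDIA3 (-0.0556), PSAT1 (-0.0230) and RPL7 (-0.0044); the cause was not tested. Of 163 named genes, 10 had a call changed by leaving out 1 library and 153 had none.

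With the replicate number as a block, 6052 genes were called, and with trends removed as well 2745, 1249 higher and 1496 lower. Deviations of same-numbered libraries correlated at 0.0238, -0.005 and -0.0077, and those of differently numbered ones at -0.0357 to 0.0387. With 3 libraries a group, this cannot show whether same-numbered libraries were prepared together. Depth limits the small RNAs that changed at least 2-fold, with 26 reads or fewer in a library.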
